A study of Mus musculus with 21 samples.

Results

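The RNA levels of 783 protein-coding genes of mouse chromosome 2 were followed along the chromosome in 7 glioma stem-like cell lines. The members were all protein-coding genes listed on chromosome 2 with a mean of at least 2 FPKM (fragments scaled to transcript length and to the size of the library) over the 21 libraries, without Zcchc3, Cox4i2 and B2m, and they made up 783 of the 1844 protein-coding genes listed for the chromosome and of the 54532 genes in the table. They were chosen by their measured mean FPKM. Just below the threshold lay Pdss1 (1.99 FPKM) and Prrx2 (1.99), and just above it Fastkd5 (2.00) and Coq4 (2.03). In each gene the deviation of a line was its mean of log2(FPKM + 0.5) minus the mean of the 7 lines, so the 7 deviations of a gene sum to 0 and a fall in some lines raises the others. The deviations in gene order and in fixed 10-Mb windows were part of how the chromosome was singled out, so they are given as a description without a test. Only RNA was measured, and a change in the number of DNA copies cannot be told apart from a change in transcription or RNA decay along a stretch.

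The lines were grown from gliomas of genetically engineered mice. PIC144-1, PIC144-3, PIC496-3 and PIC496-4 were labelled IDH1 mutant, and PC134-0, PC308-1 and PC326-1 IDH1 wild type (WT). Each line gave 3 libraries, labelled as biological replicates, of polyadenylated RNA from cells kept in suspension in medium with EGF, bFGF and heparin at low oxygen. The labels used here do not state the driver transgenes or the age of the mice. They also do not state whether lines that share a number, or any other lines, came from the same animal. The line was taken as the replicate of a genotype. PC134-0 and PC326-1 had much the same profile on this chromosome, and whether they are independent IDH1 WT replicates was not tested. The libraries held 15011668 to 21966351 fragments. Markers of glioma or neural stem-like cells were abundant in all lines (Sox2 from 103.5 to 227.8 FPKM and Olig1 from 310.2 to 719.8 as line means), and no leukocyte marker exceeded 0.054 FPKM. Of the markers of other cell types, Dcn reached 10.4 FPKM and Syt1 6.54 FPKM in PIC144-1, and their part in the results was not tested.

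Mammalian genes lie along a chromosome with little regard to function, so neighbours usually share no pathway. A gain or loss of a chromosome segment changes the template of every gene on it, and in tumour cells the RNA of many such genes is known to follow the template in part. Chromosome 2 of the mouse carries, among others, the large olfactory receptor cluster, the replication clamp gene Pcna, the spindle gene Tpx2, and imprinted genes, which are expressed from 1 parental copy, among them H13, Mcts2, Nnat and Gnas.

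Ambra1 with Dgkz and H13 with Mcts2 are 2 pairs of adjoining genes that departed from the level of their surroundings in the same 2 lines, PC134-0 and PC326-1, and the bases upstream of their starts are shown for that reason. They were picked after their values were seen, and some members departed further than H13 and Mcts2. Ambra1 (a scaffold protein of autophagy) and Dgkz (diacylglycerol kinase zeta) are neighbours, and Mcts2, an imprinted gene made by retrotransposition, lies inside H13, the signal peptide peptidase gene, on the same strand. The sequences are the 250 bases before the RefSeq start in GRCm38.p6, 5′ to 3′ on the strand of the gene, with each CG dinucleotide in capitals, which reads the same on both strands and cannot overlap another. They lie at chr2:91729888-91730137 (Ambra1, plus strand), chr2:91963564-91963813 (Dgkz, minus strand), chr2:152669211-152669460 (H13, plus strand) and chr2:152686898-152687147 (Mcts2, plus strand).
Ambra1: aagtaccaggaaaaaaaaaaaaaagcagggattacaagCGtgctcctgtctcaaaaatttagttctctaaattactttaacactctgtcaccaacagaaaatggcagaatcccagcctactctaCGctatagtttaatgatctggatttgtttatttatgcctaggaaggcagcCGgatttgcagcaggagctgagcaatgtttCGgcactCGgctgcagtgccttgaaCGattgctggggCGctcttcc
Dgkz: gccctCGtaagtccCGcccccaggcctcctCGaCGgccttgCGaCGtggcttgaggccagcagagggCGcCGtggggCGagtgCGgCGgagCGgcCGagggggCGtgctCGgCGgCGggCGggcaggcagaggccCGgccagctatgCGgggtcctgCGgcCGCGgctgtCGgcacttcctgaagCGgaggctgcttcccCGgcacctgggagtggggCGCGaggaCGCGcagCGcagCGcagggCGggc
H13: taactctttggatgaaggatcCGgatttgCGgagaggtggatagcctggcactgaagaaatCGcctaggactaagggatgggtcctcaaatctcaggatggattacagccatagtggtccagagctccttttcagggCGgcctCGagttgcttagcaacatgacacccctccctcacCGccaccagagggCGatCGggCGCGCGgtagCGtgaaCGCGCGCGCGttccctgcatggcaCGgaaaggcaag
Mcts2: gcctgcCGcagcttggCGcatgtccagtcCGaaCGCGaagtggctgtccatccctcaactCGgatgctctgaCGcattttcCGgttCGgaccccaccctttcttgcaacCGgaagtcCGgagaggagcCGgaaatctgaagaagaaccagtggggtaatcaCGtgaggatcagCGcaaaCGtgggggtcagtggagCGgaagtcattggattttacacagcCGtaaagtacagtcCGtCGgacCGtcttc
The Dgkz window held 33 CG dinucleotides, and 4.03% of the 32851 RefSeq windows of this length held at least as many. H13 held 18 (21.7% of windows at least as many), Mcts2 20 (18.0%) and Ambra1 7 (46.3%), against a median of 6 and 92.1% of windows with at least 1. For Dgkz the RefSeq start nearest to the start of the deposited gene lay 12301 bases inside it.

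Along the chromosome, 2 of the 3 IDH1 WT lines, PC134-0 and PC326-1, switched between low and high RNA levels over long blocks of genes. From 40 to 90 Mb their genes were low, from 90 Mb to the end they were high, and from 20 to 40 Mb they were close to the mean of the lines. PC308-1, the other IDH1 WT line, did not share this profile. PIC144-3, an IDH1 mutant line, was lowest from 90 to 140 Mb. The windows were joined after inspection into 5 stretches, of 0 to 20, 20 to 40, 40 to 90, 90 to 140 and 140 to 190 Mb, with 41, 173, 97, 233 and 239 members.

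**Figure D1:**
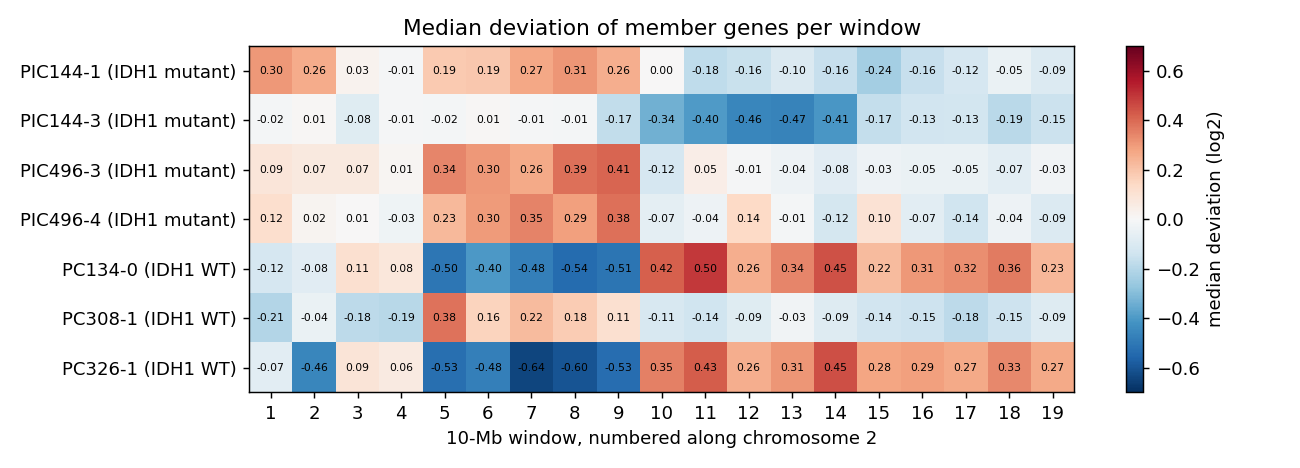
Median deviation (log2, colour and printed value) of the members in each 10-Mb window along chromosome 2 (x axis, windows numbered from 1) in each of the 7 lines (y axis). PC134-0 and PC326-1 are between -0.64 and -0.40 in windows 5 to 9 and between 0.22 and 0.50 in windows 10 to 19.

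From 40 to 90 Mb, the median deviation of the 97 members was -0.52 in PC134-0 (its 3 libraries gave -0.52 to -0.45) and -0.59 in PC326-1 (-0.62 to -0.57). The other lines were at 0.26 (PIC144-1), -0.02 (PIC144-3), 0.35 (PIC496-3), 0.33 (PIC496-4) and 0.17 (PC308-1). No library of PC134-0 or PC326-1 overlapped with a library of another line. At or below -0.25 in both lines were 74 of the 97 members (76.3%), where 11.2% of the 9271 autosomal protein-coding genes of the same abundance were. In 73 of 97 members (75.3%) both lines lay below all 5 others, against 14.5% of autosomal genes. Members of 40 to 90 Mb at or below -0.25 numbered 84 in PC326-1 (86.6%, against 17% of autosomal genes) and 75 in PC134-0 (77.3%, against 18.9%).

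Abundant members of this stretch are described singly, and whether they share a function was not tested. Psmd14, a deubiquitinase of the proteasome, gave 16.4, 18.6 and 16.5 FPKM in the libraries of PC134-0 and 16.6, 16.0 and 16.6 in those of PC326-1. It gave 31.7 to 33.8 in PC308-1, 24.7 to 27.8 in PIC144-3, and 36.7 to 46.0 in the other 3 IDH1 mutant lines. The 2 low lines thus did not overlap with any other line for Psmd14. Ssb, an RNA-binding protein that protects new polymerase III transcripts, gave 32.3 to 34.5 FPKM in PC134-0 and 31.6 to 36.1 in PC326-1, and its lowest library elsewhere was 45.3, in PIC144-3. Pdk1, the kinase that restrains pyruvate dehydrogenase, gave 27.7 to 28.7 and 27.3 to 29.4 FPKM in these lines, against 39.3 to 43.5 in PC308-1, 39.6 to 42.9 in the PIC144 lines and 58.7 to 79.4 in the PIC496 lines. Atp5g3, a subunit of the ATP synthase, was likewise lowest there, at 36.3 to 45.2 and 34.9 to 43.2 FPKM, but its libraries spread widely elsewhere, from 47.1 in PC308-1 to 160.0 in PIC496-4. Chn1 went against its stretch, with 4.37 FPKM in PC134-0 and 3.90 in PC326-1 as line means, above 1.03 in PIC144-1 and 0.467 in PIC496-4. Cers6, a ceramide synthase gene, had its low value elsewhere, at 0.220 FPKM in PIC496-4 against 4.08 to 7.27 in the other 6 lines.

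From 90 to 140 Mb, the median deviation of the 233 members was 0.37 in PC134-0 (libraries 0.34 to 0.40) and 0.34 in PC326-1 (0.30 to 0.35). PIC144-3 was at -0.42 (-0.43 to -0.41), and the 4 remaining lines lay between -0.13 and -0.01. At or above 0.25 in both PC134-0 and PC326-1 were 135 members (57.9%), against 13.2% of autosomal genes, and both lines exceeded all 5 others in 131 (56.2%, against 13.3%). PIC144-3 was at or below -0.25 in 183 of the 233 (78.5%, against 16.6%). The high pair and low PIC144-3 coincided in 112 members (48.1%, against 4.04% of autosomal genes). These conditions are not independent, because the deviations of a gene sum to 0. From 140 to 190 Mb PC134-0 and PC326-1 stayed high, at 0.30 and 0.29, and PIC144-3 was at -0.14, near PC308-1 (-0.15) and PIC144-1 (-0.12).

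**Figure D2:**
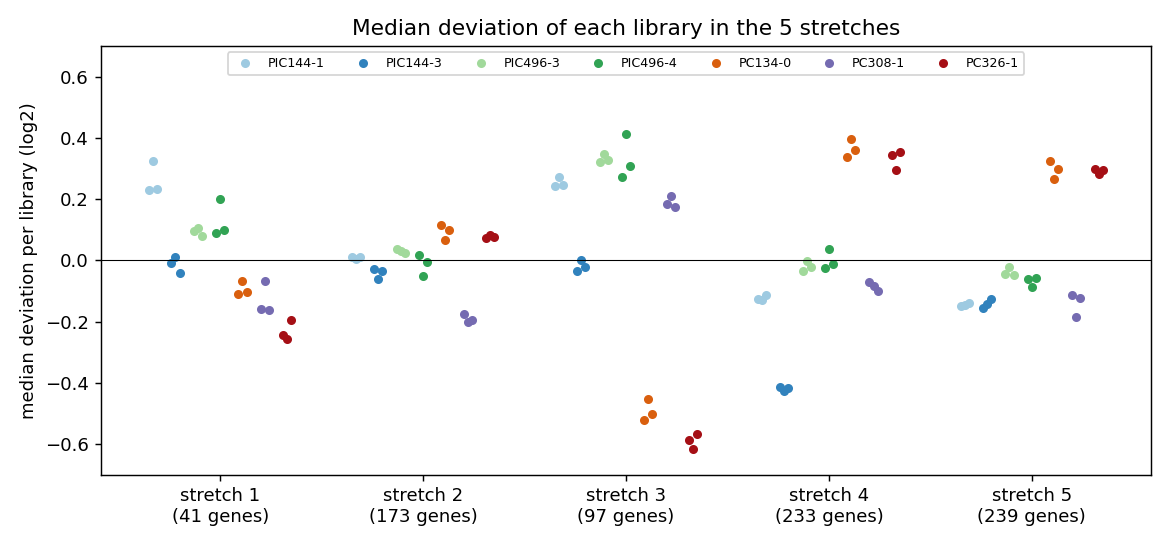
Median deviation (y axis, log2) of every library (points, 3 per line) in the 5 stretches from 0 to 20, 20 to 40, 40 to 90, 90 to 140 and 140 to 190 Mb (x axis, stretches 1 to 5 with the number of members). The libraries of PC134-0 and PC326-1 lie below all others in stretch 3 and above all others in stretches 4 and 5, and those of PIC144-3 lie lowest in stretch 4.

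Hsd17b12, an enzyme of fatty acid elongation, followed the chromosome median of the lines most closely among members of at least 10 FPKM (Pearson r = 0.995 over the 7 lines, a description). It gave 160.0 to 177.7 FPKM in PC134-0 and 148.7 to 167.0 in PC326-1, 74.7 to 79.5 in PIC144-3, 84.5 to 96.6 in PC308-1, and from 96.7 up in the libraries of the other lines, all below PC326-1. Pdia3, a disulfide isomerase of the endoplasmic reticulum (r = 0.988), gave 256.6 to 270.4 FPKM in PC134-0 and 260.8 to 283.3 in PC326-1, and no other library exceeded 181.8. The other members among the 4 highest by this measure were Ppdpf (0.992) and Vps16 (0.985), and all 4 genes start beyond 90 Mb. Pcna gave 104.4 to 113.1 FPKM in PC134-0 and 102.5 to 123.2 in PC326-1, and 55.5 to 65.2 in PIC144-3. PC308-1 was as low as PIC144-3 for Pcna, at 57.4 to 65.3 FPKM. Not every abundant gene followed: the ribosome biogenesis factor Nop56 had line means of 19.1 FPKM in PC134-0 and 21.2 in PC326-1, between 12.7 in PIC144-3 and 44.4 in PIC496-4. The translation initiation subunit Eif3m was highest in PIC496-4, at 78.8 FPKM, above 66.8 in PC134-0 and 72.4 in PC326-1.

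Between the stretch of 40 to 90 Mb and that of 90 to 140 Mb the median rose by 0.88 in PC134-0, a ratio of 1.85, and by 0.93 in PC326-1, a ratio of 1.91. In the other 5 lines it changed by -0.40 to -0.26, part of which follows from the deviations summing to 0. Between 20 to 40 Mb and 40 to 90 Mb it fell by 0.61 and 0.67 in the same pair. The size of these stretch medians hardly depended on which members were used: over 6 subsets by abundance, strand and gene span, the medians for 40 to 90 Mb ran from -0.57 to -0.41 in PC134-0 and from -0.67 to -0.56 in PC326-1, and those of PIC144-3 at 90 to 140 Mb from -0.48 to -0.39.

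Genes that the rule did not use showed the same signs in part. Among 23 protein-coding genes of 0.5 to 2 FPKM at 40 to 90 Mb, the median was -0.31 in PC134-0 and -0.51 in PC326-1. Among 29 such genes at 90 to 140 Mb it was 0.21 and 0.26, and -0.30 in PIC144-3. Among 44 at 140 to 190 Mb it was 0.06 and -0.03, so the high level of the abundant genes there was not seen. Genes not listed as protein-coding gave smaller values than the members, with -0.19 and -0.10 at 40 to 90 Mb (24 genes). They gave 0.22 and 0.08 at 90 to 140 Mb (33 genes), and 0.08 and -0.05 at 140 to 190 Mb (39 genes).

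**Figure D3:**
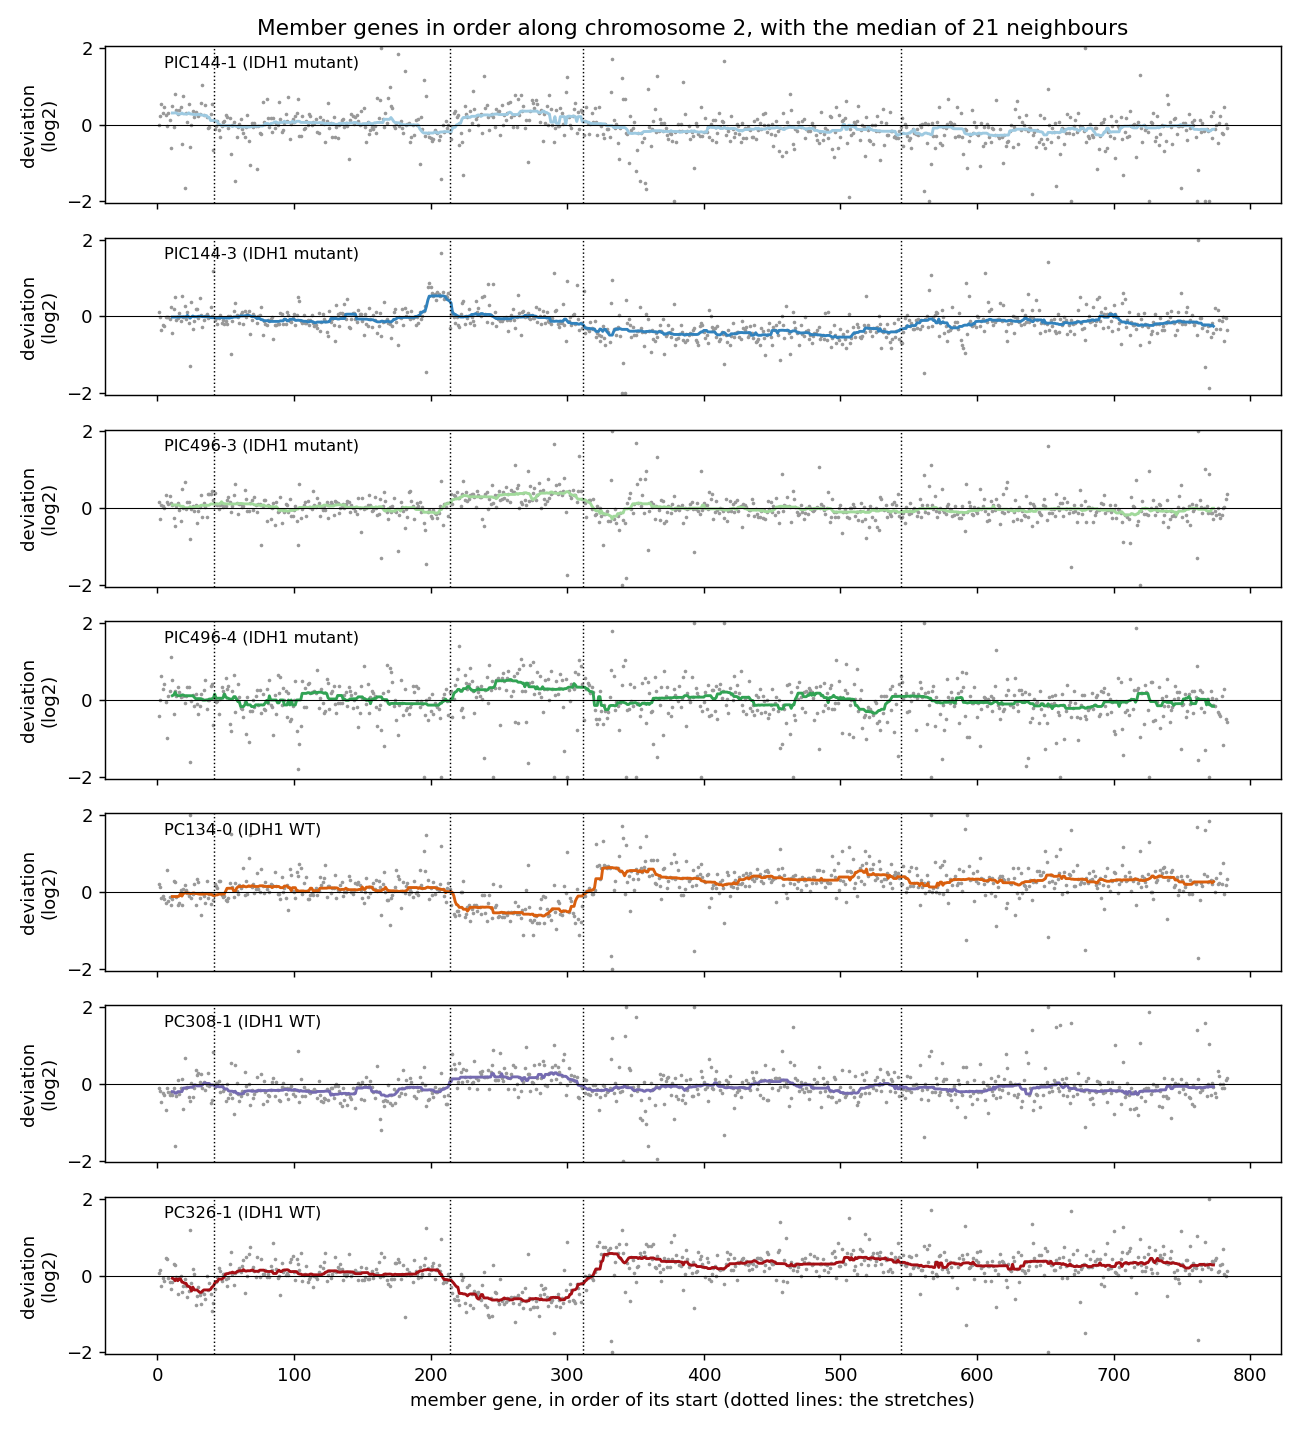
Deviation (y axis, log2; values beyond 2 are drawn at the edge) of each of the 783 members (grey points) in order of gene start (x axis), 1 panel per line, with the median of 21 neighbouring members (coloured line); dotted lines separate the 5 stretches. The coloured line falls near 40 Mb and rises near 90 Mb in both PC134-0 and PC326-1, and PIC144-3 has a short raised run just before the dotted line at 40 Mb.

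The changes of level could be placed between genes. The fall at 40 Mb came after Ppp6c, which starts at 39194354, and, by the single split of the gene order with the least absolute deviations, before Gtdc1 (44564412) in PC326-1 and before Acvr2a (48814109), 2 members on, in PC134-0. The 2 places differ by few genes. In PC134-0 too, all 5 members of the window of 40 to 50 Mb were below 0, and 4 were at or below -0.25. Ppp6c and Gtdc1 start 5.37 Mb apart, with 3 other protein-coding genes between them, none above 0.118 FPKM. The rise near 90 Mb had an intermediate step in both lines. Up to Tnks1bp1 (85048022) the genes were low: the last 16 members, from Zc3h15 on, had medians of -0.51 in PC134-0 and -0.43 in PC326-1. Then came 5.38 Mb with 236 protein-coding genes, 227 of them with olfactory receptor symbols, and none above 0.253 FPKM. The next 9 members, from Ptprj to Slc39a13 over 632 kb, lay near the mean of the lines, with medians of 0.02 and -0.06. Over these members PIC144-3 was at -0.31 and PIC496-4 at 0.29, which also enter the mean. The single split, which allows only 1 change, fell within this run. It lay before Fnbp4 (90745370) in PC134-0 and before Mtch2 (90847155) in PC326-1. The 11 members after those, from Madd to Harbi1 over 573 kb, had medians of 0.67 and 0.66. All 11 were above 0 in both lines, with Madd itself at 1.24 in PC134-0 and 0.17 in PC326-1. These runs were chosen after their values were seen, as were the genes that bound them.

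Directly after Harbi1, Ambra1 and Dgkz dropped out of the high stretch in PC134-0 and PC326-1, the 2 lines with the same stepped profile. Ambra1 gave 1.02, 1.12 and 1.12 FPKM in PC134-0 and 1.00, 1.04 and 1.18 in PC326-1. It gave 7.25 to 8.0 in PC308-1, 5.74 to 6.29 in PIC144-3 and 7.61 to 8.84 in the other 3 lines, so the groups of libraries did not overlap. Dgkz was listed at 0 in all 3 libraries of PC326-1 and in 2 of the 3 of PC134-0, whose other library gave 0.00864 FPKM. In PC308-1 it gave 15.2, 15.6 and 16.7 FPKM, in PIC144-3 13.6, 13.2 and 13.6, in PIC144-1 23.3, 22.7 and 23.5, in PIC496-3 30.2, 27.7 and 28.0, and in PIC496-4 25.5, 23.4 and 24.5. As recovered fragments this was 1 in PC134-0 and 0 in PC326-1, against 4735 to 9194 in the other lines. A count of 0 allows up to 3 fragments of the 47623338 in that line, by counting error alone. Between them lie Chrm4, a muscarinic receptor gene, with no fragment in PC134-0 or PC326-1 and 13 to 29 in each other line, and Mdk, with 2 and 0 against 3 to 11. Gm9821, inside Dgkz on the other strand, had no fragment in either line and 3 to 142 elsewhere, but reads from the 2 genes cannot be told apart without knowing whether counting used strand. Creb3l1, which starts at 91982328 just beyond Dgkz, was near the mean in both lines, at 0.05 and 0.02. These genes were picked after their values were seen. In 9 cases over the 7 lines, neighbouring members were both off the median of their stretch by at least 1 (log2) in the same direction, and Ambra1 with Dgkz gave 2 of the 9.

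**Figure D4:**
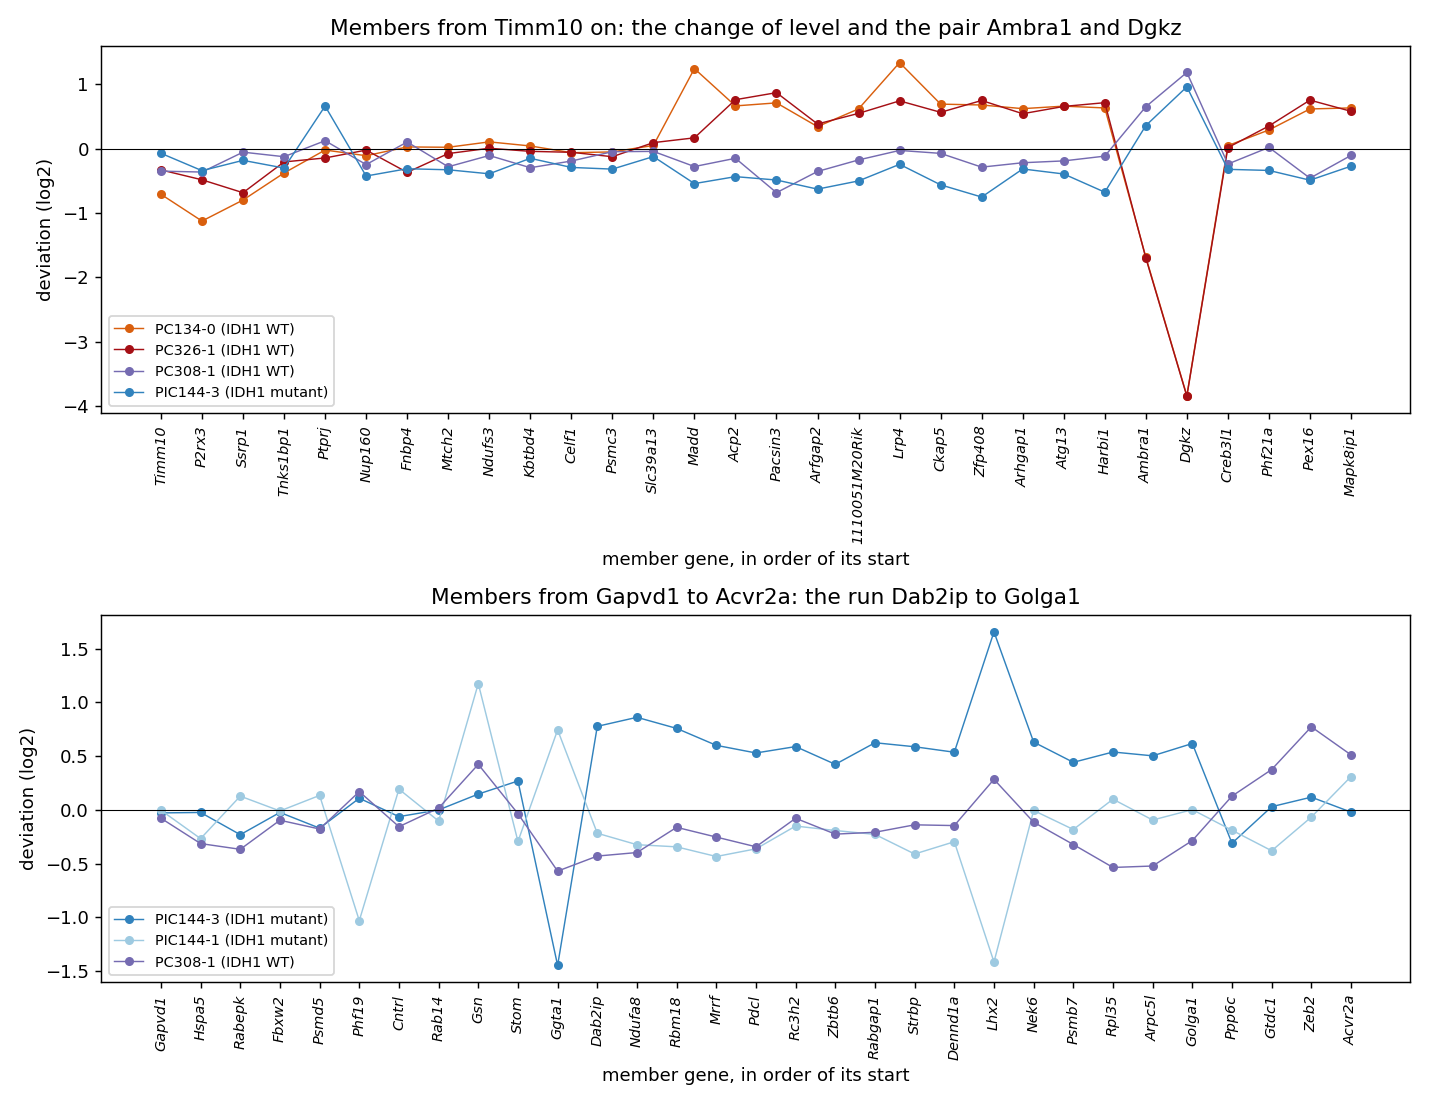
Deviation (y axis, log2) of successive members in gene order (x axis, equal spacing), in 4 lines around the rise near 90 Mb (top) and in 3 lines around the raised run of PIC144-3 (bottom). In the top panel PC134-0 and PC326-1 rise in 2 steps and then fall to -1.68 and -1.70 at Ambra1 and to -3.84 at Dgkz; in the bottom panel PIC144-3 is between 0.42 and 1.66 from Dab2ip to Golga1.

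PIC144-3 had a short block of its own that the 10-Mb windows hid. The 16 members from Dab2ip (35558266) to Golga1 (39016155), over 3458 kb, were all raised in this line, with deviations of 0.42 to 1.66 and a median of 0.59, where 19.4% of autosomal genes were at or above 0.25. The bounds of this run were set from the values of PIC144-3 itself, so that all 16 were raised follows from the choice, and its genes described here were picked after their values were seen. The 11 members before them, from Gapvd1 to Ggta1, had a median of -0.02, and Ppp6c, the next member after them, was at -0.31. Ndufa8, a subunit of respiratory complex I in this block, gave 154.7, 146.9 and 146.8 FPKM in PIC144-3 and 55.6 to 90.5 in the libraries of the other lines. Rpl35, a ribosomal protein, gave 205.3 to 243.4 FPKM, overlapping with PIC496-4 (149.5 to 212.8). Lhx2, a homeodomain factor of the developing forebrain, was highest in PIC144-3 at 18.4 to 19.4 FPKM and varied widely elsewhere, from at most 0.150 in PIC496-4 to 12.8 to 14.8 in PC134-0. Of 4 runs of 11 members whose median was at least 0.4 from that of their stretch, this one was the longest.

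The profiles of PC134-0 and PC326-1 differed at 1 place. In the window of 10 to 20 Mb PC326-1 was at -0.46 and PC134-0 at -0.08, and the median difference within genes was -0.35 over 20 members. In the other 18 windows that difference lay between -0.09 and 0.03. Counted from 10 Mb on, the low run of PC326-1 covered 21 members from Atp5c1 to Arhgap21, at a median of -0.44. By the single split it ended before Thnsl1 (21205724). Its start was set by the search from 10 Mb and was not located. PC326-1 was at -0.07 in the window of 0 to 10 Mb. PIC144-3 and PIC144-1, which share a number, differed by -0.40 to -0.25 in the 5 windows of 90 to 140 Mb. They also differed by -0.29 to -0.20 in 6 of the 9 windows before 90 Mb, where PIC144-3 itself lay between -0.17 and 0.01, and by -0.11 to 0.03 in the other 3. Beyond 140 Mb the difference lay between -0.09 and 0.12. PIC496-4 and PIC496-3 differed by at most 0.16 in any window.

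The share of the chromosome that deviated in these 2 WT lines was above that of the other autosomes pooled, but not above that of each. PC326-1 was past 0.25 in either direction in 16 of 19 windows (84.2%), against 11.2% of 232 windows on the other autosomes, and PC134-0 in 13 (68.4%, against 15.1%). On chromosome 12 all 12 windows were past it in both lines, with chromosome medians of -0.54 in PC134-0 and -0.55 in PC326-1, and on chromosome 13 12 of 12 windows were in PC134-0 and 9 of 12 in PC326-1, with medians of 0.34 and 0.29. PC308-1 was past it in 1 window of chromosome 2. Because the low and high stretches cancel, the median over the whole chromosome was 0.21 in PC134-0 and 0.18 in PC326-1, and the range over the 7 lines, 0.37, was the fifth widest of the 19 autosomes, after chromosomes 12 (1.09), 13 (0.64), 18 (0.48) and 19 (0.41).

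Single genes departed from their stretch in both lines as well. By at least 1 (log2), 8 members were below and 8 above the median of their stretch in PC134-0 and PC326-1 together, 16 in all. The other 20 pairs of lines shared 1 to 12 such members. Counted in 1 line alone, PIC496-4 had 51 members off their stretch and PIC144-1 43, against 26 in PC134-0 and 20 in PC326-1. Tcfl5 and Slpi departed downwards by more than Mcts2 in both lines, and Itih5, Cd93, Stmn3, Tfpi and Ggta1 upwards by more than H13. Cd93 was at 0.155 FPKM in PIC496-4, against 27.6 to 357.0 in the other lines, which lowered the mean of the lines. Slpi reached the mean of 2 FPKM only through PIC144-1 (58.3 FPKM, against at most 1.62 elsewhere), which also raised the mean of the lines. Itih5 reached it only through PC134-0 itself (17.7 FPKM, against 3.08 in PC326-1 and less elsewhere). The imprinted H13 and Mcts2 were among them, in opposite directions. H13 gave 44.3, 42.3 and 43.7 FPKM in PC134-0 and 32.9, 35.0 and 34.1 in PC326-1, and 6.51 to 13.3 in all libraries of the other 5 lines. Mcts2 gave 1.72 to 2.49 FPKM in PC134-0 and 1.33 to 2.79 in PC326-1, and 3.77 to 12.2 elsewhere. No library of either line overlapped with the others for either gene. Mcts2 lies within H13, and how the authors assigned reads of overlapping genes is not given in the sources used here, so the Mcts2 values are uncertain, also because its parent gene Mcts1 is a close copy. Nnat, an imprinted gene of neural development, ranged from 0.376 FPKM in PC326-1 and 11.9 in PC134-0 to 141.7 in PC308-1 as line means. Ahcy, the hydrolase of S-adenosylhomocysteine, picked after its values were seen, was at 13.7 and 14.5 FPKM in PC134-0 and PC326-1 and at 20.0 to 64.4 in the others. Stmn3, a microtubule regulator of neurons, was off its stretch upwards, at 23.8 and 32.3 FPKM, against 1.08 to 13.5.

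**Figure D5:**
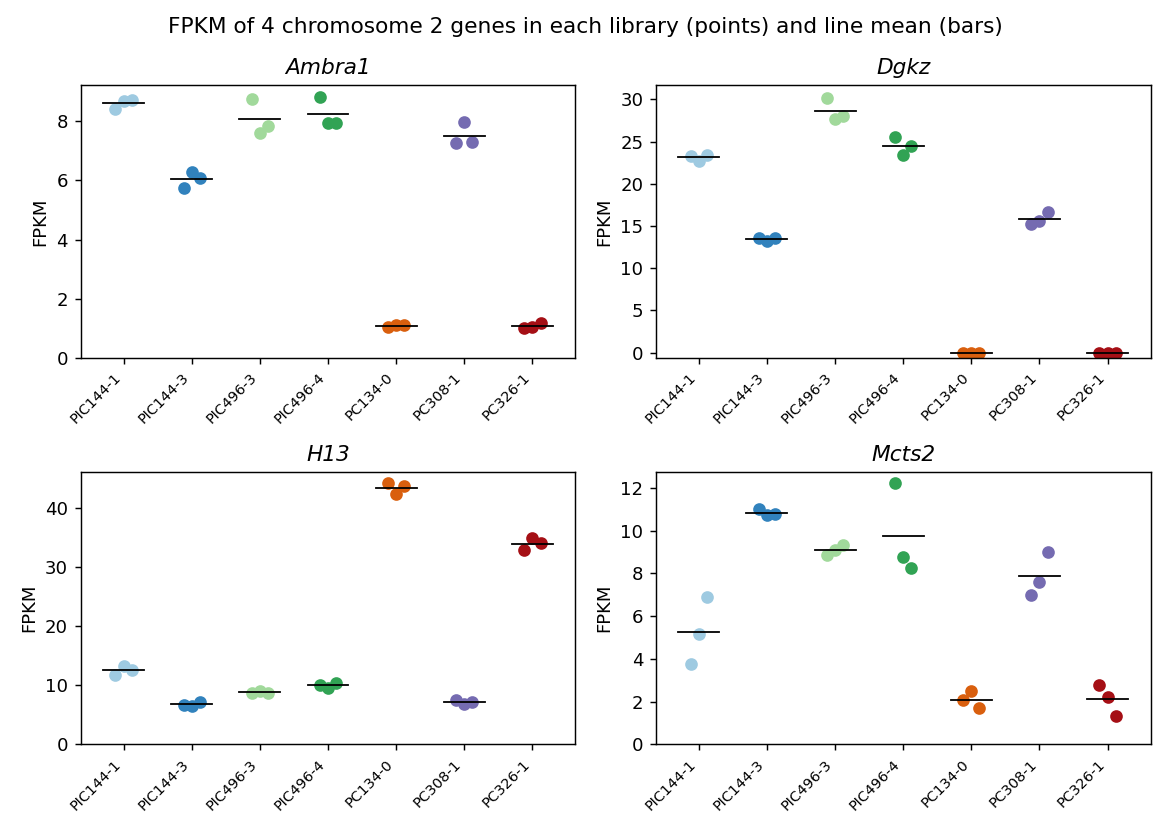
FPKM (y axis, linear) of Ambra1, Dgkz, H13 and Mcts2 in each library (points) with the mean of each line (bars). PC134-0 and PC326-1 are the lowest lines for Ambra1, Dgkz (at or near 0) and Mcts2, and the highest for H13.

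The lists of functions on the chromosome followed position. Of 32 members for cell division and DNA replication, 27 start beyond 90 Mb and 26 of those were above 0 in both PC134-0 and PC326-1, as were 390 of all 472 members there (82.6%) and 37.6% of autosomal genes. All 14 of the list at 90 to 140 Mb were below 0 in PIC144-3, as were 215 of all 233 members there (92.3%) and 50.3% of autosomal genes. Of the same list but beyond 140 Mb, Tpx2 gave 57.9 to 65.0 FPKM in PC134-0 and 54.4 to 59.5 in PC326-1, and Ube2c, a partner of the anaphase-promoting complex, had line means of 81.2 and 75.1, against 48.8 to 72.2. Of members beyond 90 Mb, both lines were above 0 in 11 of 11 Notch, neural transcription and patterning factors, 10 of 11 kinases, phosphatases and growth signalling genes, 12 of 12 chromatin genes, 14 of 18 metabolic and mitochondrial genes, 13 of 17 for protein synthesis, folding and degradation, 8 of 9 matrix, adhesion and secreted proteins, 6 of 7 neuronal and synaptic genes, 6 of 7 apoptosis and survival genes and 3 of 5 imprinted genes. At 40 to 90 Mb both lines were below 0 in 7 of 7 kinase and signalling members, 5 of 5 for protein synthesis, folding and degradation, 4 of 5 metabolic and mitochondrial, 2 of 3 matrix and adhesion, and 2 of 2 each for cell division, for neural transcription and for chromatin, as in 85 of all 97 members there (87.6%) and in 39.9% of autosomal genes. No member of any list passed the genotype test described next. These lists were drawn up with earlier results known.

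Between genotypes, no chromosome 2 member passed. In limma's moderated test on line means (4 IDH1 mutant against 3 IDH1 WT lines) with Benjamini-Hochberg adjustment over 13379 genes, 0 of 782 members had an adjusted p under 0.05, where 0.112% of all genes did. Lcn2, the remaining member, reached 0.5 FPKM in too few lines to be tested. At an unadjusted p under 0.05 were 182 members (23.3%, against 12.8% of all genes), 59 higher (6.12% of all genes) and 123 lower (6.73%) in the IDH1 mutant lines, and limma voom on recovered fragments gave 0 and 173. The line values of the genotypes did not overlap in 118 members (15.1%, against 13.2% of all genes), with 35 higher (6.81% of all genes) and 83 lower (6.37%). The median log2 difference, IDH1 mutant minus WT, was -0.15 over the members and 0.01 over all genes. By stretch it was 0.31 at 0 to 20 Mb, 0.02 at 20 to 40 Mb, 0.55 at 40 to 90 Mb, -0.37 at 90 to 140 Mb and -0.24 at 140 to 190 Mb. At 40 to 90 Mb, 37 of 97 members had an unadjusted limma p under 0.05 (38.1%, against 12.8% of all genes). All 37 were higher in the mutant lines, as were 6.12% of all genes at this p. The line values were apart in 13 (13.4%, against 13.2% of all genes), all higher in the mutant lines (6.81% of all genes). The median deviation of PC308-1 in this stretch, 0.17, lay among those of the mutant lines. Without PC308-1, 4 of 781 members passed (0.512%, against 0.22% of all genes in that fit) and 428 did not overlap (54.8%, against 33.4%), and without PC134-0 the median difference shrank to -0.08.

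The smallest limma p values belonged to genes on both sides of the steps. Pip4k2a, a phosphoinositide kinase, had line means of 13.01 to 14.2 FPKM in the mutant lines and 7.54 to 8.62 in the WT lines, PC308-1 lowest (log2 difference 0.75 ± 0.12 SE, limma adjusted p = 0.110). Nfe2l2, the regulator of the antioxidant response, had 16.8 to 22.5 FPKM against 8.76 to 12.9 (0.84 ± 0.18, limma adjusted p = 0.207). In the other direction, Cds2, an enzyme of phosphatidylinositol synthesis, had 13.6 to 17.6 FPKM against 25.3 to 28.5 (-0.74 ± 0.14, limma adjusted p = 0.162). Cry2, a repressor of the circadian clock, had 2.25 to 4.74 FPKM against 6.42 to 9.28 (-1.28 ± 0.25, limma adjusted p = 0.196). Nrarp, a feedback inhibitor of Notch signalling, had 1.07 to 2.35 against 4.03 to 8.22 FPKM, and Sirpa, the receptor of CD47, 14.9 to 29.1 against 35.3 to 58.0. For these 6 genes the genotypes did not overlap as line means, and none passed adjustment. Rpl7a, Atp5g3, Tanc1 and Timm10 completed the 6 with the smallest p in the higher direction, and Tox2 and Atp5e in the lower, with limma adjusted p between 0.207 and 0.260.

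The 44 members that start in the 5 Mb after 150 Mb, next to Zcchc3 (152411955) and Cox4i2 (152754173), resembled the rest of their stretch. Their medians were 0.31 in PC134-0 and 0.26 in PC326-1, against 0.30 and 0.30 for the other 195 members of 140 to 190 Mb, and between -0.19 and -0.06 in the other lines. Their median genotype difference was -0.21. At an unadjusted limma p under 0.05 were 8 of them (18.2%, against 12.8% of all genes), 7 lower (6.73% of all genes) and 1 higher (6.12%). The line values did not overlap in 4 (9.09%, against 13.2% of all genes), all lower (6.37% of all genes). Cox4i2 itself, left out by the rule, had 0.049 to 0.677 FPKM in the mutant lines against 6.34 to 11.1 in the WT lines (limma adjusted p = 0.013), and Zcchc3 0.104 to 1.57 against 5.91 to 6.82 (limma adjusted p = 0.110). In both of these PC308-1 was as high as PC134-0, unlike in the stretch. Of the members beside them, Sox12, a transcription factor of the Sox family, had 10.2 to 23.5 against 24.9 to 27.1 FPKM. Id1, an inhibitor of bHLH factors, had 3.25 to 7.24 against 8.14 to 33.8 FPKM (limma adjusted p = 0.305). The survival gene Bcl2l1 overlapped between genotypes, at 5.19 to 15.3 against 9.13 to 16.9 FPKM. The abundant neighbours Fkbp1a, Raly and Chmp4b had their 2 highest line means in PC134-0 and PC326-1, for Chmp4b 80.9 and 81.2 FPKM against 51.4 to 59.3.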

How the data were processed

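RNA of 7 lines with 3 libraries each was sequenced. The deposited table holds FPKM per gene, which the authors made; HISAT2 and mm39 are named in the submitters' processing notes, while no label or header names the counter, the annotation or the use of strand. The gene coordinates in the table are those of GRCm38, since all 783 members matched GENCODE M21 of that build. 1 member's symbol, turned into a date in the table, was restored from its gene ID. In every library, all values above 0 and under 1000 fragments lay within 0.05 of a whole number of fragments. Larger values were rounded to whole fragments without this check.

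From the FPKM, log2(FPKM + 0.5) was averaged over the libraries of a line. Deviations, windows of 10 Mb with at least 5 members, and stretch medians are descriptions. Genotypes were compared with limma 3.58.1 (R 4.3.3; eBayes with trend and robust) on the 7 line means, over genes of at least 0.5 FPKM in at least 3 lines, with adjusted p under 0.05 as the threshold. Differences are on the log2(FPKM + 0.5) scale, which understates those of low genes. The labels call the libraries of a line biological replicates without saying whether they came from separate cultures, so their spread may be technical. Named genes were those of smallest p, the most abundant and most extreme of the extreme windows, the neighbours in the 5 Mb after 150 Mb, the 3 most abundant of each of 10 functional lists, and those most like the chromosome median; other genes, among them those that bound runs, were chosen after their values were seen. The members and lists were chosen with earlier results of these data known. The limma comparison of genotypes was tested on simulated data. Python 3.11.15, numpy 2.4.6, pandas 2.3.3 and matplotlib 3.10.9 were used. Promoter windows are from RefSeq (690 members matched).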

Additional observations from a re-analysis of the deposited data

Results flagged for a closer look

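Among the 4 IDH1 mutant lines, 20 medians (of the chromosome and its windows) and 79 genes were examined for a line far from the other 3, by the gap to its nearest neighbour over the whole range (Dixon's ratio at its 95% critical value). None of the medians and 5 genes were singled out; chance alone singles out about 1 group in 20. All values are deviations in log2. Slpi, a secreted protease inhibitor, was at 4.98 in PIC144-1, against -0.62 to 0.18 in the other 3 mutant lines. Stmn3 was at 0.89 in PIC496-3, against -2.10 to -1.87. Pcna was at -0.53 in PIC144-3, against 0.04 to 0.12, and Bmi1, a Polycomb gene, at 0.38 in PIC496-3, against -0.06 to 0.00. Cds2 was at -0.56 in PIC496-4, against -0.26 to -0.20.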

How the results depend on the processing

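The count of members passing between genotypes was 0 under the other pseudocounts, filters, scalings and tools tried, with voom among them. It was 1 with lines that share a number averaged, 1 without PIC496-3 and 4 without PC308-1. It was 73 of 782 (9.34%, against 4.13% of all genes) with 21 libraries and line as a random effect, and 61 (7.80%, against 3.29%) when the replicate number was added to that fit as a replicate block. Whether the numbers pair the libraries was not settled by how the libraries correlated. Deviations of same-numbered libraries correlated at -0.255 to 0.526 (median 0.027). Those of different numbers correlated at -0.508 to 0.420 (median -0.026). Most like their own number, out of 3 numbers, were 11 of 21 libraries. Members whose line values did not overlap numbered 282 with lines sharing a number averaged (36.1%, against 33.6% of all genes), 203 without PIC144-3 (26.0%, against 24.0%) and 428 without PC308-1, and 109 to 167 otherwise. The median genotype difference stayed negative, from -0.27 to -0.08.

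The median of PC134-0 over the chromosome (0.21) was 0.23 and 0.19 with pseudocounts of 0.1 and 1, 0.20 with genes of at least 0.5 FPKM, 0.28 after rescaling to TPM (which moved the threshold too, to 908 genes; 0.29 for the same 783 members), 0.18 as a mean, and 0.17 and 0.24 when taken from the median of the lines or from the other 6. For the highest window (PC134-0, 100 to 110 Mb, 0.50) the same settings gave 0.52, 0.46, no move, 0.59 (also for the same members), no move, 0.40 and 0.58, with 0.45 for genes of at least 10 FPKM, 0.36 in the 20-Mb window, and 0.56 and 0.36 when shifted 5 Mb down and up. For the lowest (PC326-1, 60 to 70 Mb, -0.64), pseudocounts gave -0.69 and -0.60, genes of at least 10 FPKM -0.78 (4 genes), the mean -0.57, the other references -0.77 and -0.75, and the shift down -0.55. The cause of these moves was not tested. Of 238 further median deviations, 103 moved by at least the SD over the libraries of the line. Of the same 238, 228 kept their sign, and none of those past 0.25 reversed. All 352 differences of 16 named genes kept their sign, and 22 of them had a limma adjusted p under 0.05, as none had in the main fit. TPM over the same members and log2 of the mean FPKM, which gave 0 calls, were added after seeing the data. Depth limits the low values most: Ambra1 rested on 341 fragments in PC134-0 and 322 in PC326-1, and Chrm4 on at most 29 in any line.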
